A study of Mus musculus with 7 samples.

Results

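The H19 and Igf2 imprinted locus on mouse chromosome 7 was examined for regions bound by the homeodomain transcription factor Six4 in differentiating C2C12 myoblasts. Its members are the anti-Six4 peaks whose midpoints lie in chr7:149715000-149860000 of the mm9 build, a window of 145 kb chosen because it holds H19, Igf2 and the mesodermal enhancer region beside H19. This gave 5 peaks of the 2620 on chromosome 7 and of the 58528 in the whole list. They come from 1 chromatin immunoprecipitation sequencing (ChIP-seq) library, anti-Six4 in C2C12 cells that stably carry the control hairpin shNS, taken after 24 h in differentiation medium with horse serum. C2C12 is a mouse myoblast line that forms myotubes once serum is lowered. The series describes 7 libraries. The other 6 (anti-Six4 in the shSix4 knockdown line, anti-Flag in Flag-Six4 and in parental C2C12, normal rabbit IgG in parental C2C12, and input DNA of parental and shNS C2C12) were not analysed here, so no peak below was set against knockdown, IgG or input. There is no replicate, no read depth and no score per peak, and the list carries no information on parental allele. Whether the hairpin line is 1 clone is not given in the sources used here.

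Igf2 encodes insulin-like growth factor II, a secreted growth factor that signals through the receptor Igf1r and is known to promote differentiation of myoblasts. H19 is a long noncoding RNA and the host of the microRNA gene Mir675. The genes are imprinted in opposite directions: Igf2 is expressed from the paternal chromosome and H19 from the maternal one. A control region between them is bound by the insulator protein CTCF on the maternal chromosome and methylated on the paternal one, so that enhancers on the far side of H19 reach Igf2 on the paternal chromosome only. Some of these enhancers act in mesoderm, including muscle, and some in endoderm. In the RefSeq gene table of GRCm38, from which names and order but no positions were taken, the genes in order are Tnni2 (fast skeletal troponin I), Lsp1, Prr33, Tnnt3 (fast skeletal troponin T), Mrpl23 (a mitochondrial ribosomal protein), Nctc1 (a noncoding RNA), H19 with Mir675, Gm33148, Igf2 with Mir483 and Igf2os, and Ins2 (an insulin gene). Th, for tyrosine hydroxylase, and Ascl2 lie farther on. No annotation of mm9 was used here. The statement that the window holds H19, Igf2 and the enhancer was therefore taken as given and not checked, and no peak could be assigned to a gene, the control region or an enhancer.

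The 5 peaks lay in 3 groups that became later in the list from one end of the window to the other. A pair lay near the low-coordinate end. Peak 1 ran from 149718813 to 149719704 (892 bp) and peak 2 from 149723908 to 149724129 (222 bp), with 4.20 kb between them. Peak 3 stood alone from 149767793 to 149767971 (179 bp), 52.9 kb into the window. A second pair lay closer to the high-coordinate end, with peak 4 from 149831284 to 149831485 (202 bp) and peak 5 from 149832874 to 149833045 (172 bp), 1.39 kb apart. The first and last peaks of the window thus enclosed 114.2 kb.

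**Figure D1:**
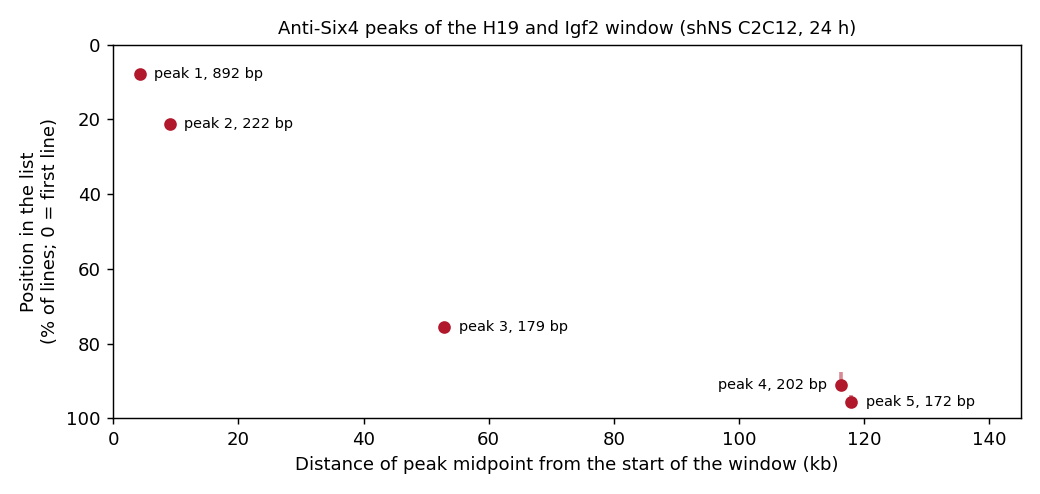
Position in the deposited list (percent of lines, first line at the top) against distance of the peak midpoint from the start of the window (kb) for the 5 peaks, labelled with their widths; vertical bars, mostly hidden by the points, show the stretch of lines in genome order that holds the peak. Peaks 1 and 2 lie within 9.02 kb of the window start and early in the list, while peaks 3, 4 and 5 lie at 75.5% of lines or later.

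The groups were separated by 2 stretches without a peak. The stretch between peaks 2 and 3 was 43.7 kb, and 538 of the 2619 gaps between neighbouring peaks on chromosome 7 (20.5%) were at least as long. The stretch between peaks 3 and 4 was 63.3 kb, a length reached by 348 gaps (13.3%). Beyond peak 5 no peak followed for 163.1 kb, which runs past the end of the window to a peak of 228 bp from 149996154 to 149996381. Only 135 of the chromosome's gaps (5.15%) were that long, against a median gap of 16.1 kb. On the other side the nearest peak, of 176 bp from 149711615 to 149711790, ended 3.21 kb before the window and 7.02 kb before peak 1. Cut into 5 equal parts of 29 kb, the window held 2 peaks in the first part, 1 in the second, 0 in the next 2 and 2 in the last.

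Peak 1 was the only wide peak of the locus. Its 892 bp exceeded 91.3% of the peaks on chromosome 7, and it made up 53.5% of the 1667 bp that all 5 peaks covered. It did not reach 1 kb, a width attained by 162 chromosome 7 peaks (6.18%). The other 4 were narrower than the chromosome's median of 304.5 bp (quartiles 215 and 526 bp), and 3 of them were below its lower quartile. Peak 5, at 172 bp, was 7 bp above the shortest width of the whole list (165 bp), and peak 3 was 14 bp above it. The median of the 5 was 202 bp, with a standard deviation over the peaks of 313 bp that peak 1 dominates.

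In the order of the list, peaks 1 and 2 came early and the other 3 late. Peak 1 stood on line 4611 (7.88% of lines), peak 2 on line 12379 (21.2%), peak 3 on line 44210 (75.5%), peak 4 on line 53262 (91.0%) and peak 5 on line 56012 (95.7%). Hence 1 of 5 lay in the first 10% of lines, where 9.05% of all chromosome 7 peaks lay, and 3 lay in the last 25%, where 25.4% did. What the authors ordered by is not given in the sources used here, so line number cannot be taken as a measure of binding strength.

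The list also ran in stretches of genome order. From 1 line to the next, 96.6% of steps ascended by chromosome name and then by start, so the list is a series of 2016 stretches that each run in genome order. The median stretch had 3 lines and 440 had 1 line, but the longest had 2963 lines, and stretches of at least 100 lines held 72.2% of the list. Within a stretch the line number follows genome position, so the bounds of the stretch are given beside the line. Whether peaks of a stretch are tied in the ordering quantity is not known. Peak 1 fell in a stretch of 187 lines from 7.59% to 7.90% of the list, and peak 2 in 569 lines from 20.3% to 21.3%. Peak 3 fell in 759 lines from 74.4% to 75.7%. The ranges were wider for peak 4, in 2231 lines from 87.7% to 91.6%, and for peak 5, in 1406 lines from 93.7% to 96.1%. All 5 peaks were in different stretches, so the order of the 5 peaks did not depend on line order within a stretch.

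Set against peaks of its own stretch, peak 2 was narrow, peaks 3 and 5 were below the median, peak 4 was near it and peak 1 was above it. The 568 other peaks that shared the stretch of peak 2 had a median width of 380.5 bp, and 5.46% of them were narrower than its 222 bp. For peak 1 the median of its stretch was 809.5 bp, with 61.8% narrower. The stretches of peaks 3, 4 and 5 had medians of 213.5, 200 and 196 bp, and 24.8%, 50.7% and 29.7% of their other peaks were narrower. Across all 2620 peaks of chromosome 7, line number and width had a Spearman correlation of -0.67, given as a description because peaks share 1 library.

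**Figure D2:**
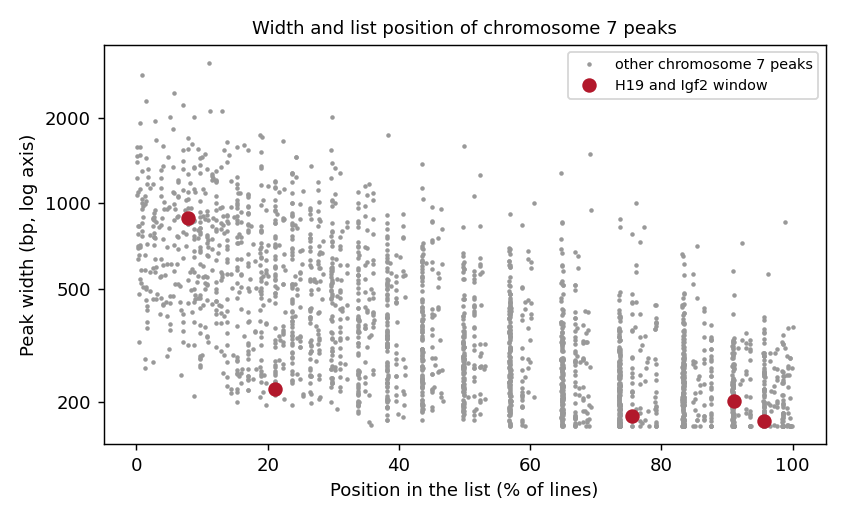
Width (bp, log axis) against position in the list (percent of lines) for all 2620 chromosome 7 peaks (grey) and the 5 peaks of the window (red). Grey points stack in columns where a stretch of lines in genome order holds many chromosome 7 peaks; the red point at 21.2% of lines and 222 bp, peak 2, lies near the lower edge of the cloud.

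The window held more peaks than most windows of its length on chromosome 7, and stood near the middle of those that held any. Windows of 145 kb were laid end to end in phase with it, between the first and last peak of the chromosome, giving 1027 others. Of these, 770 (75.0%) had fewer than 5 peaks, 56 (5.45%) had 5 and 201 (19.6%) had more. The median was 1 peak and the highest number was 19, in the window from 19795000 to 19940000. A total of 470 windows (45.8%) were empty, and assembly gaps and unmappable sequence were not removed. Among windows with at least 1 peak, 53.9% had fewer than 5. In density the locus had 34.5 peaks per Mb, beside a chromosome 7 average of 17.6 that takes in the empty windows. With 5 peaks this density is imprecise, and its difference from the average was not tested.

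**Figure D3:**
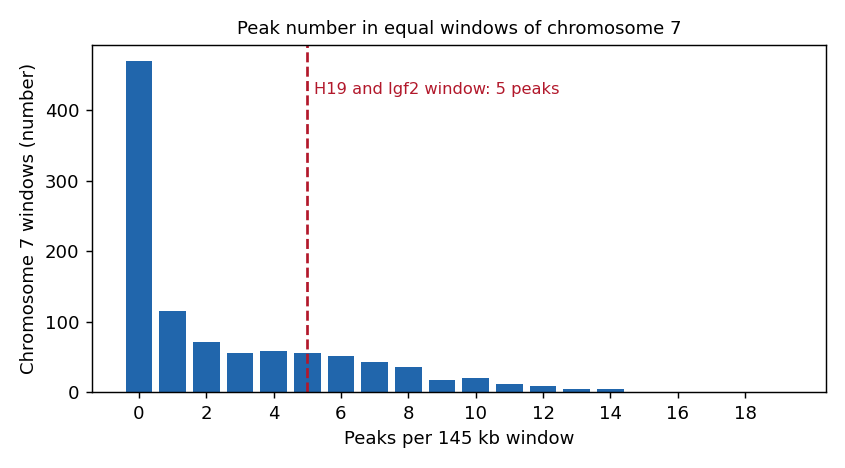
Number of chromosome 7 windows (vertical axis) by the peaks they hold (horizontal axis), for the 1027 windows of 145 kb other than that of H19 and Igf2; the dashed red line marks its 5 peaks. The bar at 0 holds 470 windows, and 201 windows lie to the right of the line.

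By covered length the window stood at a similar place, and by its single widest or earliest peak somewhat higher. Peaks covered 1667 bp, or 1.15% of the window, against 0.746% over chromosome 7, and 267 other windows (26.0%) had more. A peak wider than 892 bp was present in 184 windows (17.9%). A peak from an earlier stretch of lines than that of peak 1 was present in 135 windows (13.1%), and 7 more windows had their earliest peak in the same stretch. Compared only with the 56 windows that also had 5 peaks, the locus covered more than 22 and less than the rest. Over all 56 the median was 1928 bp (range 942 to 4195 bp). The widest peak of the locus was wider than that of 31 of the 56, and its earliest line preceded that of 40.

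More peaks lay on the low-coordinate side of the locus than on the other. The window just before it, from 149570000 to 149715000, held 10 peaks covering 3893 bp, and the window just after it, from 149860000 to 150005000, held 1 peak of 228 bp. The 2 windows before held 17 peaks together and the 2 after held 3. This difference was local. Over 10 windows on each side the totals were 61 and 46, and of those 20 windows 8 had fewer than 5 peaks, 2 had 5 and 10 had more. The 7 nearest peaks before the window were, from the closest outward, 176, 167, 417, 352, 623, 299 and 272 bp wide. The 3 closest stood at 98.5%, 65.0% and 57.0% of lines and the other 4 between 22.3% and 35.1%. Peak 1 was wider than each of these 7 and earlier in the list.

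**Figure D4:**
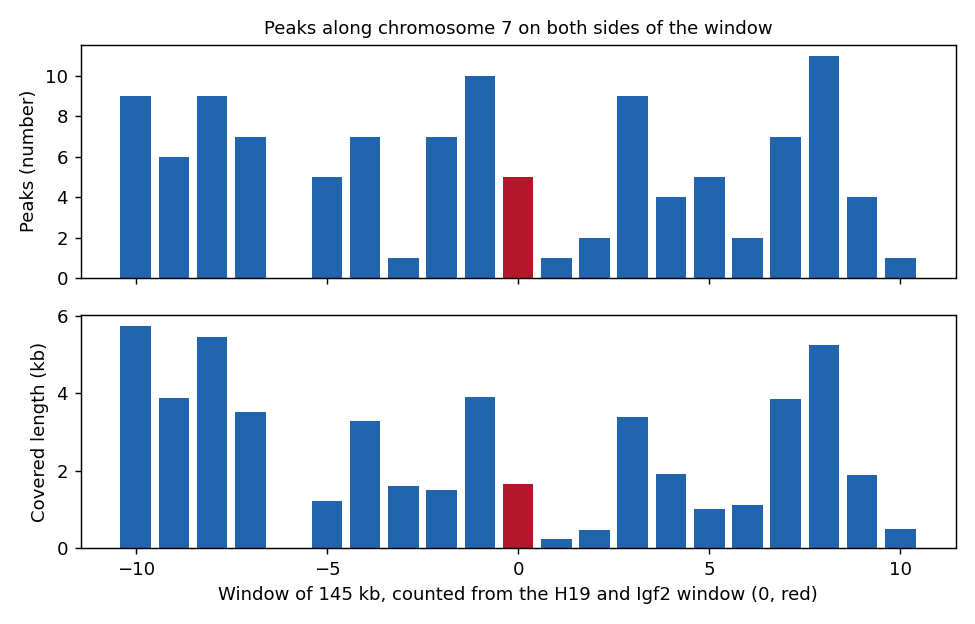
Peaks (upper panel, number) and covered length (lower panel, kb) in windows of 145 kb counted from the window of H19 and Igf2 (0, red). The window before it holds 10 peaks and the window after it 1.

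The peaks of the locus did not form a large cluster. Joined where the gap was at most 5 kb, they fell into 3 sets, a pair, a single peak and a pair. Peak 3 was therefore the 1 member that stood alone, whereas 67.4% of chromosome 7 peaks did. Chromosome 7 had 1 run of 5 or more such close peaks, and it held none from the locus. No member was at least 1 kb wide.

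Reference sequence around the listed starts of Igf2 was taken by gene symbol from the RefSeq promoter table of GRCm38.p6. It was searched for letters of known muscle and insulator motifs. These positions are of another build than the peaks, and whether a peak covers any of them is not known. Igf2 had 4 start sites in the table and H19 had no entry, so the search covers Igf2. Which of the 4 is used in C2C12 was not examined. Each promoter runs from 250 bases before to 50 bases after the start, and both strands were read. The MEF3 core TCAGGTT, the element that proteins of the Six4 family bind in muscle promoters, was in 0 of 4 Igf2 promoters and in 4.07% of the 32851 promoters of all genes. A relaxed form, TCANNTTTC, which can overlap the MEF3 core, was in 1 of 4, against 5.16% of all. The E-box CAGCTG, a form favoured by MyoD, was in 0 of 4 (16.3% of all), and the general E-box CANNTG, which includes CAGCTG, was in 2 of 4 (72.3% of all). The CTCF core motif was in 0 of 4 (1.31% of all). The 250 bases before the start of the Igf2 promoter with the relaxed Six4-family letters are shown 5′ to 3′ on the minus strand (GRCm38.p6, chr7:142661272-142661521), with the match, which reads on the opposite strand, in capitals.
Igf2: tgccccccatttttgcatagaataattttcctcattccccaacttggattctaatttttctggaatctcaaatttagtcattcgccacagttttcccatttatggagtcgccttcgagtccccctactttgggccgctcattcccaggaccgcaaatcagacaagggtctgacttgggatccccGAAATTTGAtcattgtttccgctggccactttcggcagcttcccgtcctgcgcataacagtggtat
The match begins 66 bases before the start. It is a match of letters only, in 1 promoter.

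The same letters were sought in 2 gene lists set beside Igf2 and H19, with the share of all promoters as background. Of 19 further genes in and beside the imprinted cluster, 12 were in the promoter table with 14 promoters, and none of these held the MEF3 core (4.07% of all promoters), the relaxed form (5.16%) or the CTCF core (1.31%). The general E-box CANNTG was in 12 of the 14 (85.7%, against 72.3% of all). The E-box CAGCTG was in 4 of the 14 (28.6%, against 16.3% of all), those of Ctsd (a lysosomal protease), Tspan32 and Cd81 (tetraspanins) and Phlda2 (an imprinted growth regulator of the placenta). Of 16 genes listed for the Igf axis, 14 matched with 15 promoters. The list held Igf1, receptors, substrates, Igf-binding proteins and the Igf2 mRNA-binding proteins Igf2bp1, Igf2bp2 and Igf2bp3. Of the 15 promoters, 0 held the relaxed form and 12 (80.0%) held CANNTG. The MEF3 core was in 1 of 15 (6.67%), that of Igfbp1, a secreted binding protein of Igf ligands. CAGCTG was likewise in 1 of 15, that of Igf1 (the other Igf ligand), and the CTCF core in 1 of 15, that of Irs1 (an adaptor of the receptor). With so few promoters, none of these counts says anything particular about either list, including the 4 and the 12 of 14. Their differences from the share of all promoters were not tested. Genes not matched were Cdkn1c, Ins2, Kcnq1, Lsp1, Nap1l4, Tnni2, Tnnt3, Igf2bp1 and Insr. Peaks at these genes were not counted, for want of an annotation of the same build.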

How the data were processed

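The file analysed is the authors' peak list, deposited as 3 columns (chromosome, start, end) without a header. Per the submitters' processing notes, Bowtie, Picard, bedtools and MACS2 version 2.0 were used with the mm9 build; the sources used here do not give roles, control library or thresholds. Starts, counted from 0 in the file, are printed from 1.

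A peak was assigned to the window holding its midpoint. Comparison windows lay wholly between the first and last peak of the chromosome. Stretches of the list were maximal series of lines ascending by chromosome name and start; neighbouring stretches that happen to ascend into each other are counted as 1. No test of a difference was run, since 1 library has no replicate and peaks are not replicates. The window counting was tested on simulated data. Named were Igf2, H19, every peak of the window, the adjoining windows, the fullest window and the 2 gene lists; naming of nearby peaks outside the window followed a look at their values. The members, lists and alternatives were chosen with earlier results of these data known. Motif letters were matched exactly. Values were computed in Python (version 3.11.15) using pandas 2.3.3 and numpy 2.4.6, intervals with scipy 1.17.1, figures with matplotlib 3.10.9.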

Additional observations from a re-analysis of the deposited data

How the results depend on the processing

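Of 31 recomputed values, 24 stayed within set limits. These were 1.5 times for numbers and covered length, and 1 SD over the 5 peaks for width (313 bp) and line position (40.9 points). For the share of windows with fewer peaks the limit was the exact binomial 95% interval, 72.2 to 77.6%. It is a limit only, since the windows tile 1 chromosome and are not independent draws. Several values could not move, so 24 is no measure of robustness. The 5 peaks lay more than 500 bp apart, off the window edges and above the shortest width. Merging close peaks, counting by overlap or dropping the shortest peaks thus left them unchanged. A motif absent from 300 bases is absent from the 250 within them. In the first 50% of lines, 2 peaks remained, with a median width of 557 bp and a median line position of 14.5%, and 71.6% of windows had fewer peaks. This cut drops every peak on a later line, so the median line position had to fall below 50%. The number and median width followed from the lines and widths already given for each peak. The share of windows with fewer peaks was 69.7% over all chromosomes and 53.9% among windows with at least 1 peak. Only the general E-box moved with the shorter promoter, to 1 of the Igf2 promoters. Taking the midpoint of each stretch of lines, chosen after seeing the data, gave a median position of 75.1% against 75.5%. No paired analysis was possible because only 1 of the 7 libraries had a peak list to analyse. The read depth is unknown, so weaker sites that were not called cannot be counted.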
